A study of Mus musculus with 5 samples.

Results

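The genes described here encode the subunits, assembly factors, activators and inhibitor of the proteasome, in its constitutive and its immune form. They were chosen by name, as every gene whose symbol begins with Psm, a letter from a to g and a digit, a rule that uses no measured value. Of 19938 genes with a probe set of 1 symbol on the array, 50 met this rule. They comprise 14 subunits of the constitutive core particle, 17 subunits of the regulatory particle, the 3 immune catalytic subunits Psmb8, Psmb9 and Psmb10, the tissue-restricted core subunits Psma8 and Psmb11, 7 assembly chaperones, 4 activator subunits and the inhibitor gene Psmf1. The remaining 2, Psmc3ip and Psme3ip1, are named for proteins that bind a subunit and are not subunits themselves.

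Liver RNA of 5 male C57BL/6N mice, wildtype and 5 to 6 months old, was measured on Affymetrix arrays, 1 array per mouse. All 5 belonged to a single group that had received streptozotocin (STZ), a beta-cell toxin that induces diabetes, and the fibrate bezafibrate (BEZ). STZ (65 mg/kg) was injected daily for 5 days when the mice were 10 to 16 weeks old, and BEZ was given in the chow for 8 weeks from 2 weeks after STZ, at 0.25% or 0.5% by weight, with the share per mouse not given. With 1 group no effect of either agent can be read, and each result below concerns how the 5 livers differed.

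The proteasome degrades proteins that carry ubiquitin chains. Its core particle is a barrel of stacked rings, with alpha subunits at the ends that gate entry and beta subunits in the middle, of which Psmb5, Psmb6 and Psmb7 carry the proteolytic sites. The regulatory particle caps the barrel, recognises ubiquitin and unfolds the substrate with a ring of ATPases. In immune cells, and in other cells exposed to interferon gamma, Psmb8, Psmb9 and Psmb10 are built into new core particles in place of Psmb5, Psmb6 and Psmb7, which alters the peptides made for MHC class I presentation.

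Values are log2 signals of a probe set, so that 1 unit corresponds to a doubling of the signal. Levels of different genes were not compared, since they depend on the probes. The floor for a detectable signal was, per array, the level under which 95% of the 1212 olfactory and vomeronasal receptor probe sets lay, and it ran from 5.585 to 6.071. Array medians ran from 6.22 to 6.31, and Pearson's r across probe sets was lowest for mice 1 and 4 (0.971) and highest at 0.993. Mouse 4 stood apart, with the highest floor and with 36.6% of all tested genes at their lowest there. All 8 hepatocyte markers examined, Alb, Apoa1 and Ttr among them, exceeded the floor on all 5 arrays.

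For 42 of the 50 genes a promoter is listed in the RefSeq sequence table of build GRCm38.p6. The stretches before the start sites of the immune catalytic genes and of their constitutive counterparts Psmb5 and Psmb6 are shown, because their products occupy the same positions of the core and their values had different orders of mice. Capitals mark matches, on either strand, to the sequence TGACNNNGC (the antioxidant response element, ARE, bound by NFE2L1 and NFE2L2), GAAA with NN and GAAA after it (the interferon-stimulated response element, ISRE), TTCNNNGAA (the interferon gamma-activated site, GAS), CCAAT or GGGCGG (the GC box). The matches do not overlap in the stretches printed. Each runs 5′ to 3′ toward the start site. Psmb8 is at chr17:34197945-34198194 (plus strand) and Psmb9 at chr17:34187331-34187555 (minus strand), which is all of the 225 bases between Psmb9 and the start of Tap1, the divergent neighbouring gene of a peptide transporter subunit. Psmb10 is at chr8:105938393-105938642 (minus strand), Psmb5 at chr14:54617996-54618245 (minus strand) and Psmb6 at chr11:70525107-70525323 (plus strand), the last ending 33 bases before its start site where its gene model begins.
Psmb8: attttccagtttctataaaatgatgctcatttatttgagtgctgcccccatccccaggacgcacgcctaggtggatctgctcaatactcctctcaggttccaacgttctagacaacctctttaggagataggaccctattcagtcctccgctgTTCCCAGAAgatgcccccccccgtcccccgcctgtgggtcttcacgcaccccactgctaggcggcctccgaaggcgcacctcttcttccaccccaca
Psmb9: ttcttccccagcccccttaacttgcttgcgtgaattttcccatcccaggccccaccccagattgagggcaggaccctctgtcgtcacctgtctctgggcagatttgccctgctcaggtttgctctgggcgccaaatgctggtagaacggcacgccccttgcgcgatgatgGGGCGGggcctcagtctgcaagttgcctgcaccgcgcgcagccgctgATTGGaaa
Psmb10: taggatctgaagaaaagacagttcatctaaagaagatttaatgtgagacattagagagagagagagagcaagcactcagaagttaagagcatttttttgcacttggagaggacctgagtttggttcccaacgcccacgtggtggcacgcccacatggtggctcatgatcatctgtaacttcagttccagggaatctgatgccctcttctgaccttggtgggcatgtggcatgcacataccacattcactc
Psmb5: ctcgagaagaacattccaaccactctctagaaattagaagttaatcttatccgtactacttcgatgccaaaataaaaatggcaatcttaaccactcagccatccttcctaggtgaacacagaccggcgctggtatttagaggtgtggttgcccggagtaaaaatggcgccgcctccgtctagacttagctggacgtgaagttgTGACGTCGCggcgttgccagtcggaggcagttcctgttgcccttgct
Psmb6: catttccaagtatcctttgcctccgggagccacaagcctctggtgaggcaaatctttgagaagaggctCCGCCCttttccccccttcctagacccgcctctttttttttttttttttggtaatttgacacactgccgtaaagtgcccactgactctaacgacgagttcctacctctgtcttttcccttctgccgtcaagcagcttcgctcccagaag

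The Psmb8 stretch holds a GAS match, TTCCCAGAA, and the Psmb5 stretch an ARE match, TGACGTCGC. Psmb9 holds a GC box and a CCAAT match in reverse, Psmb6 a GC box in reverse, and the Psmb10 stretch holds none of the 5 sequences. In the full 250 bases before the start site, the ARE sequence was present in 5 of the 42 genes (Psmb5, Psmb6, Psmc6, Psmd12 and Psmd9), or 11.9%, against 11.5% of the 27025 genes in the table. The Psmb6 match lies in the 33 bases not printed. GAS was present in 2 (Psmb8 and Psmg1; 4.76% against 8.13%), ISRE in 3 (Psmb3, Psmd4 and Psmd9; 7.14% against 3.46%), CCAAT in 16 (38.1% against 37.5%) and the GC box in 23 (54.8% against 35.4%). These are matches of letters only.

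The constitutive core and regulatory particle genes had their highest value in the same mouse in most cases. Of these 31 genes, 27 were highest in mouse 2, among them all 6 ATPases of the regulatory particle and all 3 constitutive catalytic subunits. Of all 13310 genes tested, 24.0%, 25.6%, 22.8%, 8.44% and 19.2% were highest in mice 1 to 5, and 11.6%, 11.4%, 18.9%, 36.6% and 21.6% were lowest there. Of the 4559 tested genes within the level range of the 31, a background chosen after seeing the data, 31.7% were highest in mouse 2. Above their own mean were 30 of the 31 genes in mouse 2, where the shares of all tested genes were 61.9%, 62.1%, 52.4%, 27.0% and 47.4% in mice 1 to 5. Among genes of the level range, 72.4% were above their own mean in mouse 2. The differences were small. The mean deviation, which is the log2 value minus the mean of the gene over the 5 mice averaged over the 31 genes, was -0.06, 0.14, -0.08, 0.03 and -0.04 in mice 1 to 5. The median over all tested genes was 0.03, 0.03, 0.0072, -0.06 and -0.0064. With 1 array per mouse, no difference between single mice can be tested, and fewer cells of a type cannot be told apart from less RNA per cell.

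**Figure D1:**
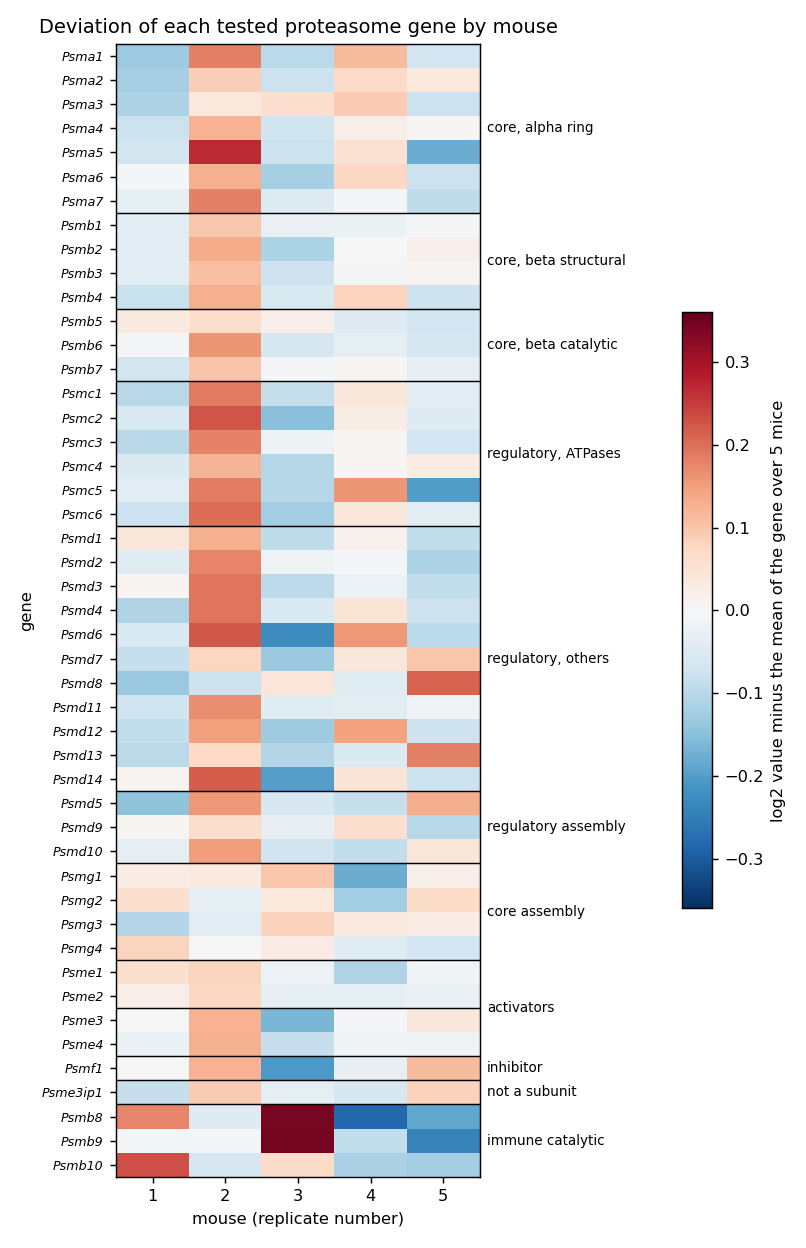
Deviation of the 47 tested genes (rows, grouped by role) in each mouse (columns), as the log2 value minus the mean of the gene over 5 mice, on a colour scale from blue (below the mean) to red (above). The column of mouse 2 is red for 30 of the 31 core and regulatory particle genes, while Psmb8 and Psmb9 are reddest in mouse 3 and Psmb10 in mouse 1.

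Set against each other mouse in turn, mouse 2 had the higher value for 31 of the 31 genes against mouse 1, 29 against mouse 3, 29 against mouse 4 and 28 against mouse 5. The shares over all tested genes were 50.3%, 54.6%, 72.2% and 58.0%. Over the 4559 genes of the level range they were larger, at 55.0%, 66.5%, 81.6% and 62.6%. The median difference over the 31 genes was 0.21 against mouse 1, 0.22 against mouse 3, 0.12 against mouse 4 and 0.22 against mouse 5, where all tested genes had 0.002, 0.02, 0.10 and 0.03. Genes of the level range had 0.016, 0.067, 0.108 and 0.054. The comparison with mouse 4 thus differs least from that of all genes or of the level range. Mice 2 and 4 were the 2 highest for 18 of the 31 genes (58.1%), beside 5.57% of all tested genes. The sign of the mean in mouse 4 depends on the scaling: with each array centred on its median it was -0.02 for both the core and the regulatory particle, and the median of all tested genes in mouse 4 was then -0.11.

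The spread of these genes was smaller without mouse 2. The median SD of the 31 genes between mice was 0.107 with all mice and 0.0689 without mouse 2, and 27 of the 31 had a smaller SD without it, as had 4733 of the 13310 tested genes, whose median SD was 0.117 with all mice and 0.115 without mouse 2. For genes that are highest in mouse 2 a smaller SD without it largely restates that rank. Their mean deviation had an SD of 0.0896 with all mice and 0.0473 without mouse 2. Without mouse 4, which stood apart, these values were 0.123 and 0.101. The counts of genes highest in mouse 2 were 13 of 14 and 14 of 17 without mouse 4. Leaving out another mouse cannot lower such a count, so this is no check of it.

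Several markers of other cell types were low in mouse 2, and some in mouse 4 as well. Of 11 Kupffer cell and macrophage markers, all tested, 0 lay above their own mean in mouse 2 and 0 in mouse 4. Their mean deviation was -0.18 in mouse 2, against 0.36 in mouse 1, -0.06 in mouse 3, -0.22 in mouse 4 and 0.10 in mouse 5. Their summed log2 level ran from 94.4 (mouse 4) to 100.8 (mouse 1), and 10 of the 11 exceeded the floor on all arrays. The 8 stellate cell markers deviated by -0.08 in mouse 2 and 0.17 in mouse 1, and the 4 tested of 7 skeletal muscle markers by -0.20 and 0.48. The 8 endothelial markers deviated by -0.0071 in mouse 2, and the 8 hepatocyte markers by -0.06 in that mouse and from -0.04 to 0.06 in the others. The cholangiocyte markers (4 tested) were high in mouse 2, at 0.14, and low in mouse 3, at -0.15, as the proteasome genes were. In mice 4 and 5 these markers had -0.05 and 0.10, where the 31 genes had 0.03 and -0.04. Of the 4, 1 was highest in mouse 2, beside 25.6% of all tested genes. In mouse 2 Sox9 deviated by 0.33 and Epcam by 0.20, but Krt19 and Krt7 by 0.02 each. Krt7 was highest in mouse 3, at 0.07. The erythroid and adipocyte markers (3 tested of each) deviated by -0.15 and -0.09 in mouse 2, by 0.31 and 0.12 in mouse 1, and by 0.25 and 0.19 in mouse 3. The part of the cell mix in the values of the proteasome genes was not tested.

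Among the 7 alpha subunits, which form the gated outer rings, 6 were highest in mouse 2 and 4 were lowest in mouse 1. Psma5 spread most. Its log2 values were 9.50, 9.84, 9.49, 9.62 and 9.39 in mice 1 to 5 (mean 9.57 ± 0.17, SD, n = 5), a 1.36-fold span. Mouse 2 lay above the other 4. A further probe set of Psma5 was also highest in mouse 2 and lowest in mouse 5. Psma4 spread least of the ring at 10.29 ± 0.08. Psma3 was the exception to mouse 2, with its highest value in mouse 4 by all 3 of its probe sets: 10.49, 10.64, 10.66, 10.69 and 10.52 by the brightest.

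The structural beta subunits Psmb1 to Psmb4 were all highest in mouse 2, with mean deviations of -0.05, 0.12, -0.07, 0.01 and -0.01 in mice 1 to 5. Psmb1 reached 10.31 in mouse 2, with the remaining values between 10.175 and 10.208 (mean 10.22 ± 0.06, SD, n = 5), close to each other. Psmb4 had 12.13 ± 0.10, and both probe sets of Psmb3 were highest in mouse 2 and lowest in mouse 3. The catalytic subunits Psmb5, Psmb6 and Psmb7 had mean deviations of -0.01, 0.11, -0.02, -0.02 and -0.05, with the smallest SD over mice of the 3 core groups (0.0622).

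The regulatory particle followed the core. The mean deviations of its 17 genes were -0.06, 0.15, -0.10, 0.03 and -0.03 in mice 1 to 5. Of the 17, 10 were lowest in mouse 3, beside 18.9% of all tested genes and 25.6% of those in the level range. The core minus the regulatory particle differed by 0.006, -0.03, 0.04, -0.005 and -0.02 in the 5 mice, less than either moved between mice. The 6 ATPases, which unfold substrates, had the widest span of the 5 constitutive groups (0.18 in mouse 2 and -0.10 in mouse 3), with Psmc5 widest at 8.33 ± 0.17 (SD, n = 5) and Psmc4 narrowest at 10.84 ± 0.09. Both probe sets of Psmc1 were highest in mouse 2.

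Of the 11 other subunits of the regulatory particle, 8 were highest in mouse 2 and 3 in mouse 5. Psmd6, a subunit of the lid, was widest with 10.75, 11.03, 10.58, 10.96 and 10.71 in mice 1 to 5 (mean 10.805 ± 0.185, SD, n = 5), a 1.36-fold span. Mice 2 and 4 lay above the other 3. Psmd14, the deubiquitinase of the lid, ran from 10.70 in mouse 3 to 11.11 in mouse 2, and Psmd1 was narrowest at 11.34 ± 0.09. The 3 genes highest in mouse 5 were Psmd7, Psmd8 and Psmd13. Psmd8 had 10.78, 10.83, 10.96, 10.87 and 11.12, and was the 1 gene of the 31 below its own mean in mouse 2. Psmd7 (9.97 in mouse 2 and 9.99 in mouse 5) and Psmd13 (9.91 and 10.02) were second highest in mouse 2. Psma3, Psmb3, Psmc1, Psmd7, Psmd8, Psmd13 and Psmd14 are named after their values were seen.

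**Figure D2:**
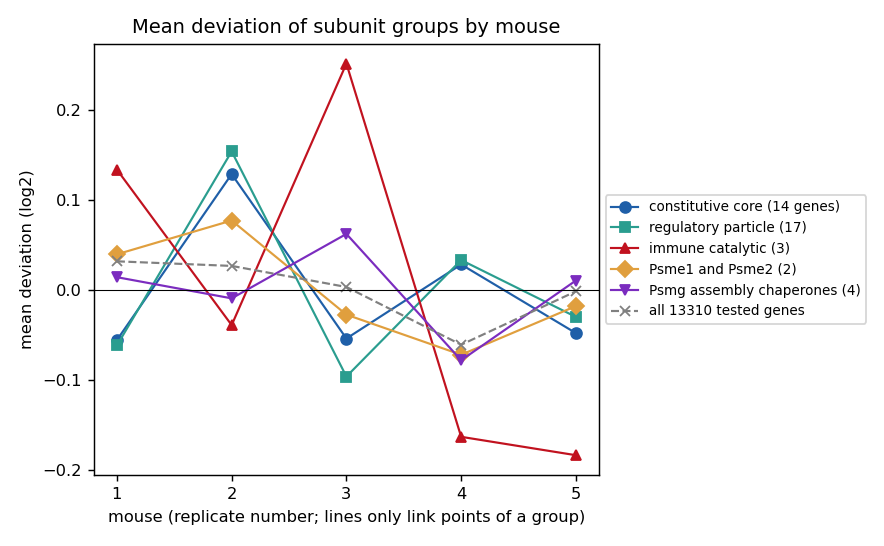
Mean deviation (log2) of 5 groups of proteasome genes and of all tested genes (grey dashes) in each mouse; lines link the points of a group and imply no order of mice. The constitutive core (0.13) and the regulatory particle (0.15) peak in mouse 2, and the immune catalytic subunits in mouse 3 (0.25).

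The immune catalytic subunits had another order of mice. Psmb8, which takes the place of Psmb5, had log2 values of 6.52, 6.30, 6.69, 6.06 and 6.16 in mice 1 to 5 (mean 6.34 ± 0.26, SD, n = 5), a 1.54-fold span. Psmb9, which takes the place of Psmb6, had 8.33, 8.32, 8.68, 8.24 and 8.09 (8.33 ± 0.22, 1.501-fold). Psmb10, which takes the place of Psmb7, had 8.11, 7.81, 7.94, 7.76 and 7.75 (7.87 ± 0.15, 1.28-fold). Mice 1 and 3 had the 2 highest values of each gene, although mice 1 and 2 differed by only 0.002 for Psmb9. This pair of mice was at the top for 16.4% of all tested genes and for 0 of the 31 constitutive genes. Psmb8 lay just below the floor in mouse 4 (6.06, floor 6.07), so its lowest value is near background.

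The mean deviation of the 3 immune genes was 0.13, -0.04, 0.25, -0.16 and -0.18 in mice 1 to 5, a 1.35-fold span from mouse 5 to mouse 3. The 31 constitutive genes spanned 1.16-fold and the 3 constitutive catalytic subunits 1.119-fold. A mean over fewer genes moves more, and the immune genes lie at levels where a larger SD is usual. Single mice set part of the span of the immune genes. Without mouse 3 the SD of Psmb9 was 0.111, from 0.215, and its span 1.18-fold, and without mouse 1 the SD of Psmb10 was 0.0878, from 0.15. Psmb8 kept an SD of 0.199 to 0.296 with any 1 mouse left out. In mouse 2, where the constitutive genes were highest, the mean of the immune genes was -0.04, and 0.0033 with arrays centred on their medians.

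Each immune subunit was set against the constitutive subunit of the same position as a difference, centred on its mean over the mice. The difference removes an array shift only if equal for both probe sets, not one that depends on level. For Psmb8 minus Psmb5 it was 0.14, -0.11, 0.33, -0.24 and -0.12 in mice 1 to 5, and for Psmb9 minus Psmb6 -0.0012, -0.17, 0.40, -0.06 and -0.18. For Psmb10 minus Psmb7 it was 0.30, -0.16, 0.07, -0.12 and -0.09. Mouse 3 was highest for the first and second pairs and mouse 1 for the third, and all 3 differences were below 0 in mice 2, 4 and 5. Without mouse 3, Psmb9 minus Psmb6 was above 0 in mouse 1 (0.10) and in mouse 4 (0.045), and Psmb8 minus Psmb5 was -0.0285, -0.1565 and -0.0355 in mice 2, 4 and 5. Without mouse 1, Psmb10 minus Psmb7 was -0.0882, -0.0483 and -0.0122 in those mice. Averaged over the pairs, the difference was 0.15, -0.15, 0.27, -0.14 and -0.13, a 1.33-fold span. The constitutive partners moved little. Psmb5 had 12.24, 12.27, 12.23, 12.16 and 12.14 (12.21 ± 0.06, SD, n = 5), Psmb6 10.73, 10.89, 10.67, 10.70 and 10.67 (10.73 ± 0.09) and Psmb7 10.36, 10.53, 10.42, 10.43 and 10.39 (10.43 ± 0.06). The SD of the immune subunit was 4.63, 2.36 and 2.34 times that of its partner, where the SD usual at the level of the gene was 0.128 for Psmb8 and 0.0816 for Psmb5, 0.122 for Psmb9 and 0.098 for Psmb6, and 0.126 for Psmb10 and 0.101 for Psmb7.

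**Figure D3:**
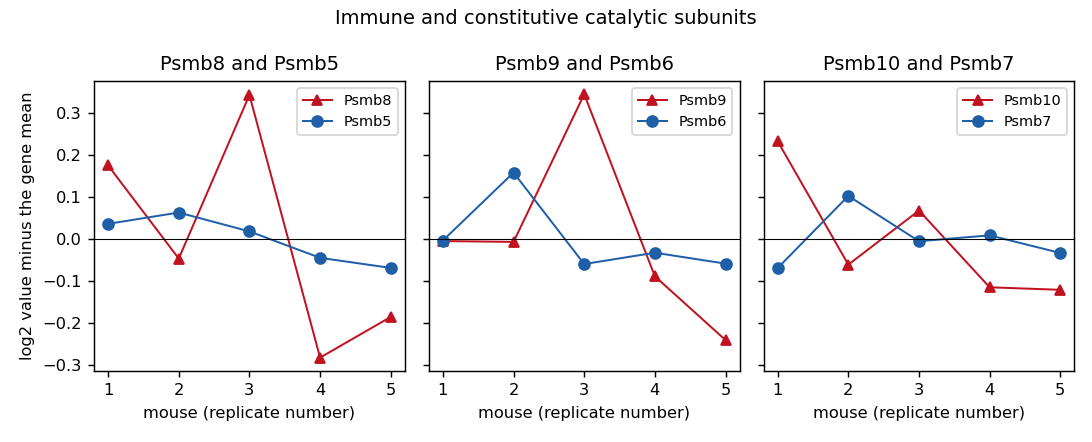
Deviation (log2 value minus the mean of the gene) of each immune catalytic subunit (red triangles) and of the constitutive subunit of the same position (blue circles) in mice 1 to 5. Psmb8 and Psmb9 are highest in mouse 3 and Psmb10 in mouse 1, while Psmb5, Psmb6 and Psmb7 are highest in mouse 2.

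Markers of cells that carry the immune subunits at rest moved between the mice too. The Kupffer cell and macrophage markers were highest in mouse 1 (0.36) and at -0.06 in mouse 3, so they peaked in another mouse than Psmb8 and Psmb9 and in the same mouse as Psmb10. Of 12 T and NK cell markers, 4 were tested and 7 lay below the floor on all arrays, Cd3g, Cd3d, Ncr1 and Gzma among them; the 4 deviated by -0.0023, -0.07, 0.09, -0.08 and 0.06, with a summed level of 25.5 to 26.2. Of 6 B and plasma cell markers measured, 3 were tested and Cd79a, Ms4a1 and Jchain lay below the floor on all arrays. Those 3 deviated by 0.02, -0.08, 0.14, -0.12 and 0.04 (summed level 18.9 to 19.7), with 2 of the 3 highest in mouse 3 and 2 lowest in mouse 2. The 7 tested of 9 dendritic cell and MHC class II markers deviated by 0.13, -0.15, 0.10, -0.13 and 0.05 (summed level 52.8 to 54.8), and Xcr1 and Itgax lay below the floor on all arrays. Of 7 neutrophil markers, 5 lay below the floor on all arrays, and the mean of the 2 tested was highest in mouse 4, at 0.09. Lists of other cells moved as well. The 3 tested erythroid markers deviated by 0.31, -0.15, 0.25, -0.23 and -0.18 in mice 1 to 5. The 3 tested adipocyte markers deviated by 0.12, -0.09, 0.19, -0.12 and -0.10. Both lists were above 0 in mice 1 and 3 and below 0 in the others, as the immune subunits were. The stellate cell markers had these signs too. The part of any of these cells in the immune subunits was not tested.

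Interferon response genes were, in the mean, above 0 in mice 1 and 3 and below 0 in mice 2 and 4. The 16 tested genes of the type I response (18 measured) deviated by 0.15, -0.10, 0.07, -0.10 and -0.03 in mice 1 to 5, and 3 had an unadjusted p under 0.05 in the variance test explained below, where 6.36% of all tested probe sets had. Among the marker lists, 6 of 11 Kupffer cell and macrophage, 3 of 4 skeletal muscle and 2 of 7 dendritic cell markers had. The widest of the type I list, Usp18 (SD 0.345) and Rsad2 (0.289), were both highest in mouse 5, where the immune subunits were low. Of the 16, 3 were highest in mouse 5 and 6 lowest, beside 19.2% and 21.6% of all tested genes. Above their own mean were 15 of the 16 in mouse 1 and 11 in mouse 3, beside 61.9% and 52.4% of all tested genes. The 12 tested genes of the interferon gamma response (13 measured) deviated by 0.09, -0.10, 0.05, -0.14 and 0.09. In mouse 5 their median was -0.0098, with 6 of 12 above their own mean, and Cxcl10 alone deviated by 1.14. Of the 12, 1 had an unadjusted p under 0.05. Cxcl10, a chemokine gene, was 8.84 in mouse 5, where Psmb8, Psmb9 and Psmb10 were low, and 7.27 to 7.67 in the others. Gbp8 (SD 0.228), of a family of interferon-induced GTPases, was highest in mouse 3 at 7.05. After adjustment 0 genes of either list passed the variance test.

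MHC class I presentation genes, which use the peptides the proteasome makes, had a median SD of 0.112. The interferon gamma and type I lists had 0.169 and 0.197. Part of the class I list lies at high levels (B2m 13.0, Canx 11.92, Calr 11.71), where a smaller SD is usual. The 11 genes tested deviated by 0.04, 0.02, 0.06, -0.05 and -0.07, and 0 passed the adjusted variance test. Of 14 listed, H2-K1, H2-D1 and H2-T23 had no probe set of 1 symbol. Tap1, which shares its upstream stretch with Psmb9, had 7.90, 7.76, 7.71, 7.33 and 7.41 (mean 7.62 ± 0.24, SD, n = 5). It was highest in mouse 1, where Psmb9 was 8.33, and both genes were low in mice 4 and 5. Tap2, the other transporter subunit gene next to Psmb8, had 7.53, 7.72, 7.75, 7.60 and 7.49. H2-M3, a class I gene of the non-classical kind, had an SD of 0.197, with 6.65 in mouse 2.

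The interferon-inducible activator subunits Psme1 and Psme2, which open the gate of the core without ubiquitin, had smaller SDs than the immune catalytic subunits. Psme1 had 10.51, 10.53, 10.43, 10.34 and 10.44 (mean 10.45 ± 0.07, SD, n = 5) and Psme2 10.78, 10.84, 10.73, 10.73 and 10.73 (10.76 ± 0.05), the smallest SD of all tested members. Both were highest in mouse 2 and lowest in mouse 4, although mice 3 and 4 differed by only 0.001 for Psme2. A probe set shared by Psme2 and Psme2b was not used. Psme3, of the nuclear activator, had 10.16 ± 0.11 and Psme4, a single-chain activator, 10.14 ± 0.08, both highest in mouse 2 and lowest in mouse 3. Psmf1, the inhibitor, had 9.96, 10.08, 9.75, 9.93 and 10.07 (9.96 ± 0.13), also lowest in mouse 3.

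The chaperones of the regulatory particle followed its subunits in the mouse of the highest value. For Psmd9 the values in mouse 2 (8.237) and mouse 4 (8.234) were nearly equal. Psmd5 (9.65 ± 0.14, SD, n = 5), Psmd9 (8.17 ± 0.07) and Psmd10 (8.74 ± 0.10) were all highest in mouse 2. Of the core chaperones Psmg1 to Psmg4, 0 of 4 were, with mean deviations of 0.01, -0.0092, 0.06, -0.08 and 0.01. Psmg1 had 8.51, 8.52, 8.59, 8.31 and 8.51, and Psmg2 8.57, 8.48, 8.55, 8.39 and 8.58, with mouse 4 lowest for both. Psmg4 had 7.19 ± 0.06, and Psmg3 (5.94 ± 0.07) exceeded the floor on 4 arrays only. Pomp, a further core assembly factor that is no member by the rule, was highest in mouse 2 (9.94, 10.12, 10.03, 10.06 and 9.96).

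Other genes of the pathway peaked in mouse 2 to differing degrees. Of all tested genes, 25.6% were highest in mouse 2 and 18.9% lowest in mouse 3. Of 11 tested genes of factors that bind the proteasome, 8 were highest in mouse 2 and 7 lowest in mouse 3, with mean deviations of -0.05, 0.14, -0.10, -0.0074 and 0.02. The widest were Ublcp1, a phosphatase of the proteasome (6.81, 7.27, 6.64, 7.05 and 6.84; SD 0.242), and Uchl5, a deubiquitinase of the regulatory particle (SD 0.164). Of 8 tested genes of ubiquitin activation, shuttling and extraction, 5 were highest in mouse 2, with Uba6 (SD 0.19) and Ufd1 (0.186) widest. The 8 deviated by 0.03, 0.12, -0.12, -0.08 and 0.04 in mice 1 to 5. Of 7 tested genes of the NFE2L1 pathway, which raises proteasome genes when proteasome activity falls short, 3 were highest in mouse 2. The 7 deviated by 0.06, 0.08, -0.05, -0.07 and -0.02. Both the ubiquitin and the NFE2L1 list were above 0 in mouse 1 and below 0 in mouse 4. The 31 constitutive genes had -0.06 and 0.03 there. Nfe2l1 itself had 10.05, 10.18, 9.92, 9.95 and 9.80, highest in mouse 2, and Nfe2l2, its paralogue of the antioxidant response, had 11.44 in mouse 5 (SD 0.162). In each of the 3 lists 0 genes passed the variance test, after adjustment or at an unadjusted p under 0.05.

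Psma8, the alpha subunit of the testis, and Psmb11, the beta subunit of the thymus, lay below the floor on all 5 arrays, with means of 4.81 and 5.53. Psmc3ip, a recombination gene, had a mean of 5.52 and exceeded the floor in mouse 1 only. These 3 were not tested, and 45 of the 50 genes exceeded the floor on all arrays. Psme3ip1 had 8.51 ± 0.08 (SD, n = 5).

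**Figure D4:**
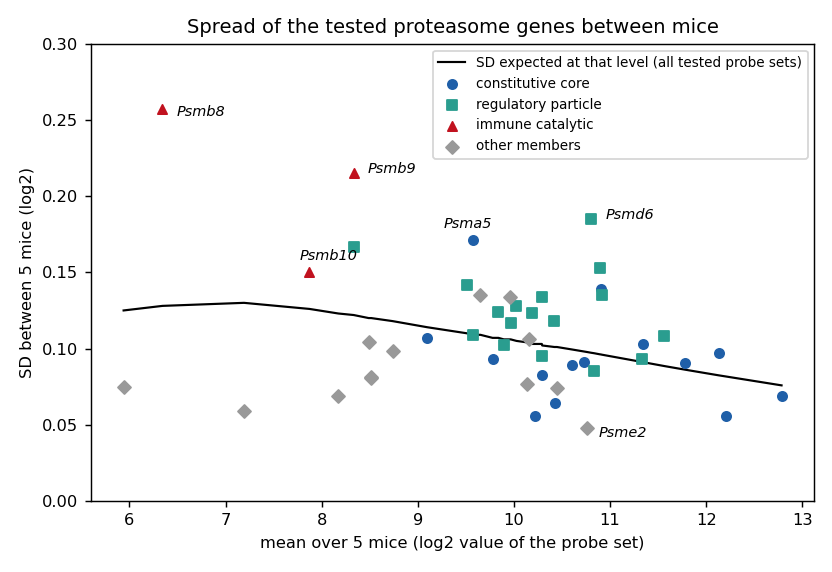
SD between 5 mice (log2) of the 47 tested genes against their mean log2 level, with the SD expected at that level from all tested probe sets (black line). Psmb8 (SD 0.257) and Psmb9 (0.215) lie farthest above the line, Psme2 (0.0478) well below it.

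The spread of single genes was near what is usual at their level. The variance of each gene between the 5 mice was set against the variance expected at its mean level by an F test with limma, with Benjamini-Hochberg adjustment over 14558 probe sets at 0.05. Of the 47 tested members, 0 passed after adjustment and 0 had an unadjusted p under 0.05, where 0.357% and 6.36% of all tested probe sets did. Psmb8 had the highest variance relative to that of its level, with a ratio of 4.04 (adjusted p = 0.843 with limma), followed by Psmd6 at 3.61 (adjusted p = 0.902) and Psmb9 at 3.11 (adjusted p = 0.965). The median ratio of the members was 1.03, against 0.931 over all tested genes, and 23 of 47 had a ratio under 1, against 53.0%. The test reads 1 gene at a time and does not ask whether genes moved together. Psmb8 had an unadjusted p under 0.05 without mouse 1, without mouse 2 or without mouse 5, and Psmd6 without mouse 5.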

How the data were processed

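Liver RNA of 5 mice, 1 group, was read on 1 array each. The values are log2 signals per probe set, deposited by the authors; per the submitters' processing notes, RMA and Affymetrix Expression Console 1.2 were used, with no settings. The arrays normalized together are not stated there, and RMA compresses differences near background. The platform annotation gave 1 symbol to 21789 of 35556 probe sets. The brightest probe set stood for a gene, and all 56 member probe sets matched the RefSeq gene table (GRCm38.p6) by gene ID.

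Tested were the 14558 probe sets of 13310 genes whose mean exceeded the mean floor, 5.77. An intercept-only fit (limma 3.58.1, statmod 1.5.0, R 4.3.3) gave the variance on 4 degrees of freedom, set against that expected at the same level in an F test of the upper tail (robust fit, 6.22 prior degrees of freedom). It was tested on simulated data. Group values are means of centred values, without a test. Python 3.11.15, numpy 2.4.6 and pandas 2.3.3 did the rest. Technical and biological spread cannot be told apart with 1 array per mouse, and the number of arrays limits precision.

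The members and lists were chosen with earlier results of these data known, although the rule for the members reads only symbols. Named were the catalytic, activator, inhibitor, assembly and tissue-restricted genes, the widest and narrowest member of each role, members with an unadjusted p under 0.05 and the 2 widest tested genes of each pathway list; of marker lists, those needed beside a result. Alternatives were quantile or median scaling, other filters, other variance fits, means over probe sets, medians over groups and leaving out each mouse. Psme3ip1 was given its role after its values were seen.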

Additional observations from a re-analysis of the deposited data

Results flagged for a closer look

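In 4 of 67 values examined, 1 mouse lay so far from the other 4 that its gap to the nearest of them was over 0.71 of the whole range, which chance gives in about 1 in 20 groups. A count of 4 in 67 is near that rate, which holds for independent groups. The 67 values include group means of the same members and are not independent, so the count cannot be judged by it. No such share over all tested genes is given here. In all 4 the mouse apart was mouse 2, at the top, where most constitutive genes were highest. They were Psmb1, a structural core subunit gene (10.312 in mouse 2, gap 0.759 of the range), Psmb6, a catalytic one (10.891, gap 0.743), Psmd11, of the regulatory particle lid (10.454, gap 0.748), and the mean deviation of Psmb5, Psmb6 and Psmb7 (0.107, gap 0.744), which includes Psmb6.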

How the results depend on the processing

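The count of members past the adjusted limma test was 0 in each of 13 alternatives, in which it was 0 to 2 at an unadjusted p under 0.05. With arrays centred on their medians 1 member (Psmb8) had an unadjusted p under 0.05, and with 1 mouse left out 0 to 2 had. In these alternatives, limma called between 0 (without mouse 4, or with all probe sets with or without a symbol) and 146 probe sets (arrays centred), against 52. The genes highest in mouse 2 numbered 12 to 14 of 14 in the core and 12 to 16 of 17 in the regulatory particle under all alternatives that keep mouse 2. Leaving out another mouse cannot lower these counts, and the lowest (12 and 12) came with quantile normalization. The mean deviations by mouse and the 15 immune minus constitutive differences moved by less than their SD between mice in all alternatives run. Leaving out a mouse only recentres the rest, by too little to pass that limit. In the differences the centring of arrays cancels and each gene has 1 probe set, so only quantile normalization could have passed it there. The largest such move was of Psmb8 minus Psmb5 in mouse 4, from -0.24 to -0.30. Signs that turned were those of means near 0, in mouse 4 for the core (-0.02) and the regulatory particle (-0.02) with arrays centred, in mouse 5 for the regulatory particle (0.0087 without mouse 2), in mouse 2 for the immune subunits (0.0033 with arrays centred, 0.0239 without mouse 3), and for Psmb9 minus Psmb6 in mice 1 and 4 (0.10 and 0.045 without mouse 3). No paired analysis was possible because all 5 samples form 1 group. Psmb8 and Psmg3 lie near the floor, where RMA values compress differences.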
